A study of Mus musculus with 2 samples.

Results

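The miR-34 family is a group of microRNAs best known for its link to p53, the stress-activated transcription factor. Its 7 mature names examined here, mmu-miR-34a-5p, mmu-miR-34a-3p, mmu-miR-34b-5p, mmu-miR-34b-3p, mmu-miR-34c-5p, mmu-miR-34c-3p and mmu-miR-449a-5p (written below without the mouse prefix mmu), were found by exact name among the 1915 mouse microRNA names in 2 deposited tables of liver small RNA libraries. The table called experiment 1 lists 484 names and 4 of the members. The table called experiment 2 lists 1915 names and all 7 members, of which 3 were above 0. Each table holds 1 pair-fed and 1 ethanol-fed library.

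The livers came from female C57BL/6 mice aged 8 to 10 weeks, wild type in both groups. All mice received the control Lieber-DeCarli liquid diet during 5 days of acclimatization. Ethanol-fed mice then had the diet with 5% (v/v) ethanol for 10 days and a gavage of 6 g/kg ethanol on day 16, whereas pair-fed mice had the isocaloric control diet and a gavage of isocaloric dextrin-maltose. Livers were taken 9 h after the gavage. The design statement of the series gives 16 days of ethanol feeding, which differs from the 10 days of the feeding protocol. The labels name 1 sample per condition, and the animals or pools behind a library are not given in the sources used here. No spread between animals can therefore be given and no test was made, so each comparison is between 2 libraries. All intervals below are 95% intervals that cover counting error only.

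A microRNA is cut from a hairpin as a 5p and a 3p strand, and the strand that stays in Argonaute directs it to messenger RNAs that pair with its seed, bases 2 to 8. p53 switches on the genes of miR-34a and of the miR-34b and miR-34c pair, and these microRNAs lower proteins of the cell cycle and of survival. A known target is *Sirt1*, the NAD-dependent deacetylase that acts on p53 itself and on regulators of lipid metabolism in hepatocytes, and miR-34a has been studied in fatty liver for that reason. miR-34b, miR-34c and the miR-449 microRNAs are best known from multiciliated cells of airway and reproductive tract. The study followed *Sirt1* in the ethanol-fed liver, but *Sirt1* mRNA and protein and p53 activity were not analysed here.

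The mature sequences of the members are given 5′ to 3′ with the seed in capitals. RefSeq sequences on GRCm38.p6 matched 6 of the 7 members, all but miR-34c-5p. The deposited tables give no coordinates, so all positions are those of the GRCm38 reference. The first set carries the seed that was searched for in *Sirt1*:
miR-34a-5p: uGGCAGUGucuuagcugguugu
miR-34b-5p: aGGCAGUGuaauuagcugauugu
miR-449a-5p: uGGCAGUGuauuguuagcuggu
The second set holds the opposite strands of the same hairpins, which carry other seeds:
miR-34a-3p: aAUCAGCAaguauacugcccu
miR-34b-3p: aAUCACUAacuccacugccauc
miR-34c-3p: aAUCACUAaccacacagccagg

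The seed GGCAGUG stood in 4 of 1679 mature sequences of the RefSeq table, the 3 above and miR-449c-5p. miR-34c-5p and miR-449b had no entry there, so their seeds were not checked and they are missing from this count. Beyond the seed the 5p strands differed. miR-34a-5p had the same base as miR-449a-5p at 15 of 22 positions counted from the 5′ end, and the same base as miR-34b-5p at 11 of 22. The seed AUCACUA was held by miR-34b-3p and miR-34c-3p alone among the 1679, and AUCAGCA by miR-34a-3p alone.

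The hairpins lie at 3 loci. Mir34a is at chr4:150068454-150068555 on the plus strand and overlaps an exon of Gm37795, a gene model that the annotation marks as awaiting experimental evidence. Mir34b at chr9:51103562-51103645 and Mir34c at chr9:51103034-51103110 are on the minus strand, 451 bases apart, in an intron of *Btg4* on the opposite strand. Mir449a is at chr13:113037534-113037624 on the plus strand in an intron of *Cdc20b*, with the 3 mir-449 hairpins inside 1642 bases.

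To show what the shared seed pairs with, the 3′ UTR of *Sirt1* was searched on the mRNA strand for CACTGCC, which pairs with bases 2 to 8, and for ACTGCCA, which pairs with bases 2 to 7 and has A opposite base 1. The 2 motifs overlap by 6 letters when they occur together as CACTGCCA. In the 1631 bases of the longest annotated *Sirt1* 3′ UTR, on the minus strand of chromosome 10 in exon 14, ACTGCCA occurred 2 times and CACTGCC 0 times. The matches are given in capitals with 10 bases on each side:
Sirt1 chr10:63319849-63319855: caccacaaatACTGCCAagatgtgaat
Sirt1 chr10:63319353-63319359: taggaccattACTGCCAgaggagaaaa
Of all 21020 genes with an annotated 3′ UTR, 19.8% held at least 1 of the motifs, and of the 1441 genes with a 3′ UTR within 10% of the length of that of *Sirt1*, 26.4% did. All 14 messenger RNAs listed as reported miR-34a targets held one, among them *Ppara*, the fatty acid oxidation regulator, *Hnf4a*, the hepatocyte transcription factor, and *Klb*, the FGF21 co-receptor. The list was made of reported targets and their 3′ UTRs had a median of 2417 bases against 961 for all genes, so the count describes the list and is no test. A match is a string of letters, and binding was not measured.

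In experiment 1 the authors counted reads, 4170601 on microRNAs for pair feeding and 4311802 for ethanol feeding. These counts were scaled here to RPM, reads on a microRNA per 1000000 reads on all microRNAs. Where no read was counted, up to 0.719 RPM (pair-fed) or 0.696 RPM (ethanol-fed) could have been missed. Experiment 2 was deposited as RPM. Its low values rose by a fixed step, 0.0925 RPM for the pair-fed and 0.0924 RPM for the ethanol-fed library, and 98.0% and 97.3% of the values under 60 RPM were whole multiples within 0.1 step. If a step is 1 read, the libraries held 10812946 and 10820862 reads on microRNAs. The lowest value above 0 was 0.92 RPM, or 10 steps, so a value listed at 0 in experiment 2 may hold up to 9 steps. The mature members are 21 to 23 bases long, so their levels are compared without scaling to length.

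miR-34a-5p, the most abundant family member in all 4 libraries, was lower in the ethanol-fed library of experiment 2. It stood at 119 RPM (1292 steps, interval 113 to 126) under pair feeding and at 44.5 RPM (481 steps, interval 40.6 to 48.6) under ethanol feeding. The pair-fed level was 2.69-fold higher, and the log2 ratio of the ethanol-fed to the pair-fed level, after adding 1 read or step to each library, was -1.42 (interval -1.58 to -1.27). Here and below, the interval of a log2 ratio was computed without the added read or step. Its rank among the microRNAs of the library went from 116 to 151.

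In experiment 1 miR-34a-5p had 24 reads (5.75 RPM, interval 3.69 to 8.56) under pair feeding and 19 reads (4.41 RPM, interval 2.65 to 6.88) under ethanol feeding. The log2 ratio was -0.37 with an interval from -1.33 to 0.54, so a difference was not detectable with this few reads. Its rank went from 195 to 212. The value was thus lower in the ethanol-fed library of both tables, in experiment 1 within counting error. The intervals of the 2 log2 ratios overlapped only between -1.33 and -1.27, and such an overlap does not measure how far the ratios differ. The difference between the experiments was not tested.

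miR-34c-5p, from the chromosome 9 pair, had 4 reads (0.959 RPM, interval 0.261 to 2.46) under pair feeding and 8 reads (1.86 RPM, interval 0.801 to 3.66) under ethanol feeding in experiment 1. In experiment 2 it stood at 10.5 RPM (113 steps, interval 8.61 to 12.6) under pair feeding and 12.5 RPM (135 steps, interval 10.5 to 14.8) under ethanol feeding. The log2 ratio was 0.80 (interval -0.95 to 3.13) in experiment 1 and 0.25 (interval -0.12 to 0.63) in experiment 2. Both intervals include 0, and the libraries overlapped in each table.

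miR-34b-5p, transcribed beside miR-34c, had 0 reads under pair feeding and 1 read under ethanol feeding in experiment 1, both under the limit that a count of 0 allows. In experiment 2 it stood at 0.92 RPM (10 steps, interval 0.443 to 1.70) under pair feeding and 2.13 RPM (23 steps, interval 1.35 to 3.19) under ethanol feeding. The log2 ratio was 1.12 with an interval from 0.07 to 2.44. Its pair-fed value is the lowest that the table lists, so it sat just inside the minimum of the table, and the intervals of the 2 levels overlapped. The 5p reads of the chromosome 9 pair together went from 4 to 9 reads in experiment 1, a log2 ratio without pseudocount of 1.12 (interval -0.72 to 3.27), and from 11.4 to 14.6 RPM in experiment 2, a log2 ratio of 0.36 (interval 0.01 to 0.71).

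miR-449a-5p had 0 reads under pair feeding and 1 read under ethanol feeding in experiment 1, and was listed at 0 in both libraries of experiment 2. The other miR-449 names, miR-449a-3p, miR-449b, miR-449c-5p and miR-449c-3p, were above 0 in no library of either table. The 3 opposite strands miR-34a-3p, miR-34b-3p and miR-34c-3p were not listed in experiment 1 and were listed at 0 in both libraries of experiment 2. For the mir-34a hairpin of experiment 2, a value under the listed minimum leaves miR-34a-3p below 0.764% of the reads of both arms under pair feeding and below 2.03% under ethanol feeding. Reads of this family were thus found on the 5p strands only, within the minimum that each table lists.

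**Figure D1:**
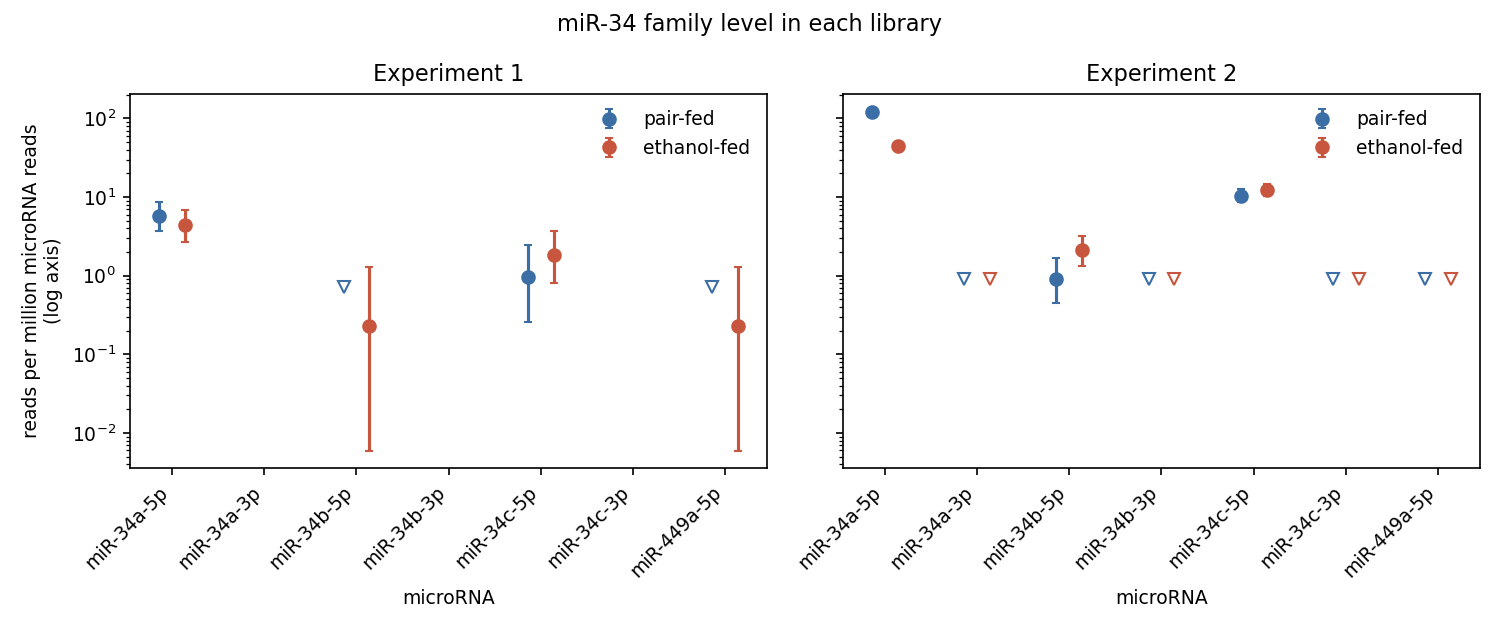
Level of each miR-34 family member in RPM (log axis) in the pair-fed (blue) and ethanol-fed (red) library of each experiment. Bars are 95% counting intervals, and open triangles mark members listed at 0, drawn at the limit of a count of 0 in experiment 1 and at the lowest listed value of 0.92 RPM in experiment 2. Members without a mark were not listed. miR-34a-5p went from 119 to 44.5 RPM in experiment 2.

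The order of the levels was miR-34a-5p, miR-34c-5p and miR-34b-5p in both libraries of experiment 2, with no overlap of the intervals between neighbours. In experiment 1 miR-34a-5p lay above miR-34c-5p without overlap in the pair-fed library, whereas their intervals overlapped in the ethanol-fed library. miR-34c-5p could not be separated from miR-34b-5p and miR-449a-5p there.

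The call used for single libraries was a level at least 2-fold higher or lower, an absolute log2 ratio of at least 1, among microRNAs with at least 10 reads or steps in both libraries together. In experiment 1, 2 members passed the minimum, miR-34a-5p and miR-34c-5p, and 0 were called, where 12.6% of the 302 microRNAs were called higher and 12.9% lower. In experiment 2, 3 members passed. Of these, miR-34b-5p was called higher, where 10.7% of the 469 microRNAs were, and miR-34a-5p was called lower, where 15.1% were. Part of these shares, which are also used for the lists below, comes from names listed at 0 in 1 library. With 0 set to the lowest listed value, 22 of the 469 were higher and 49 lower. Among the 298 microRNAs of experiment 2 with at least 100 steps, 12 (4.03%) were higher and 24 (8.05%) were lower, and miR-34a-5p had the 19th lowest log2 ratio. At that minimum miR-34b-5p is left out.

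**Figure D2:**
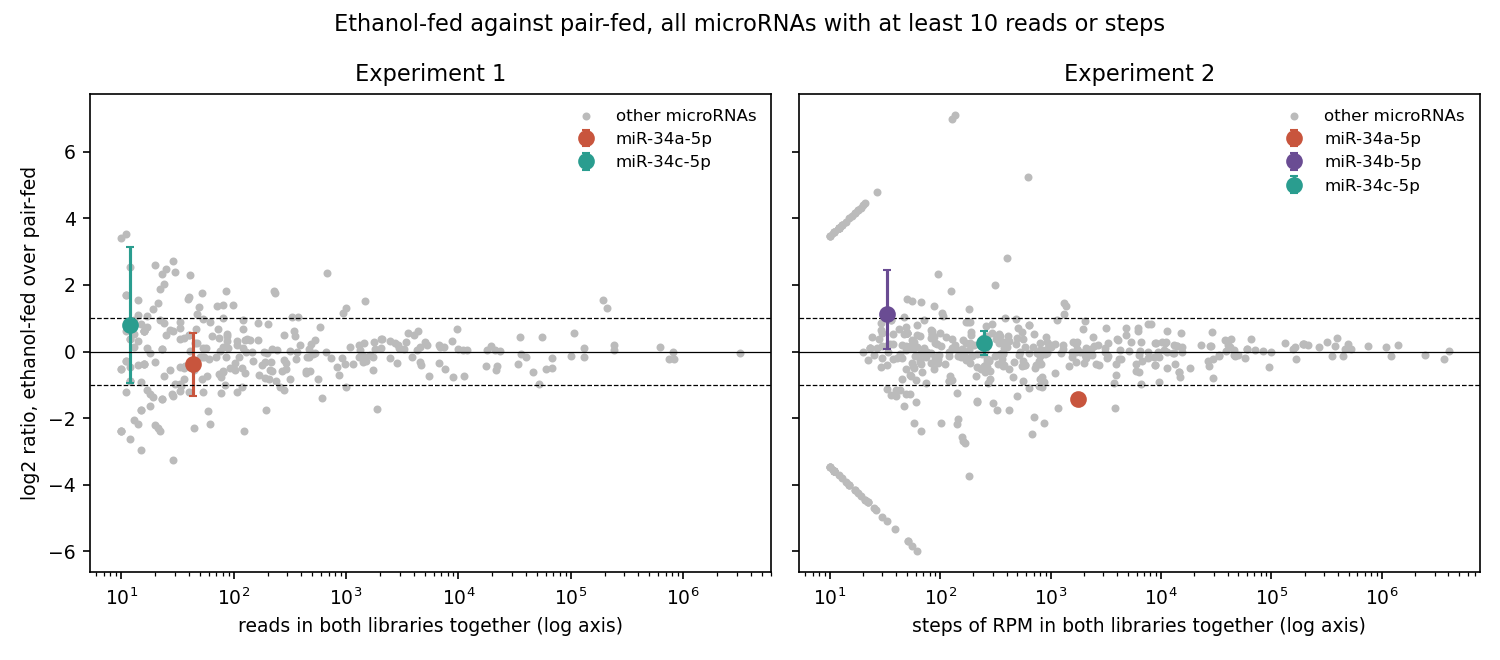
Log2 ratio of the ethanol-fed to the pair-fed level against the reads (experiment 1) or steps of RPM (experiment 2) of the 2 libraries together (log axis), for every microRNA with at least 10. Dashed lines mark 2-fold, bars are 95% counting intervals without pseudocount, and the slanting rows in experiment 2 are microRNAs listed at 0 in 1 library. miR-34a-5p lies at -0.37 in experiment 1 and at -1.42 in experiment 2, and miR-34c-5p lies above 0 in both.

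The makeup of the family differed between the libraries of a table. In experiment 2 miR-34a-5p made up 91.3% (exact binomial interval 89.7 to 92.7) of the 1415 family steps of the pair-fed library and 75.3% (71.7 to 78.6) of the 639 steps of the ethanol-fed library. The share of miR-34c-5p went from 7.99% to 21.1%, and that of miR-34b-5p from 0.707% to 3.60%. In experiment 1 miR-34a-5p made up 85.7% (67.3 to 96.0) of 28 reads in the pair-fed library and 65.5% (45.7 to 82.1) of 29 reads in the ethanol-fed library, intervals that overlap.

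Reads of miR-34a-5p per read of miR-34c-5p do not depend on the library total, and this ratio was chosen after the values had been seen. It went from 6 (interval 2.06 to 23.8) in the pair-fed to 2.38 (0.993 to 6.27) in the ethanol-fed library of experiment 1, 2.53-fold lower with an interval of 0.561 to 13.1. In experiment 2 it went from 11.4 (9.43 to 13.98) to 3.56 (2.94 to 4.35), 3.21-fold lower with an interval of 2.42 to 4.25. The ratio was lower in the ethanol-fed library of both tables, and the interval includes 1 in experiment 1 only.

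Summed over the 4 names of the 5p strands, the family stood at 6.71 RPM under pair feeding and 6.73 RPM under ethanol feeding in experiment 1, a log2 ratio without pseudocount of 0.0026 (interval -0.80 to 0.81). In experiment 2 the sum went from 131 to 59.1 RPM, 2.22-fold lower in the ethanol-fed library, a log2 ratio of -1.15 (interval -1.29 to -1.01). miR-34a-5p supplied most of the family total in all 4 libraries.

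**Figure D3:**
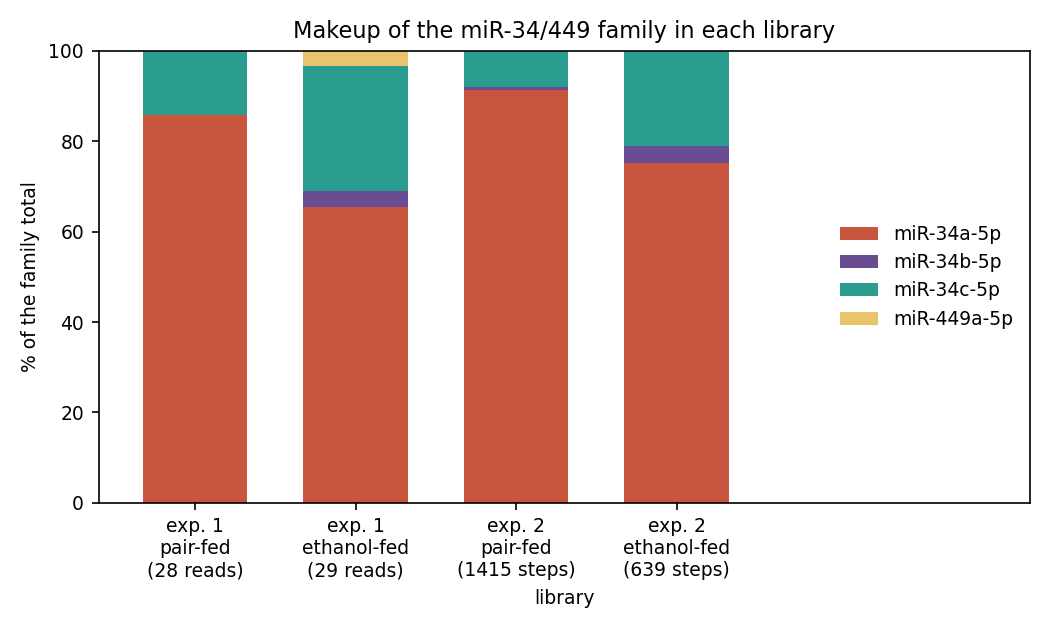
Share (%) of miR-34a-5p, miR-34b-5p, miR-34c-5p and miR-449a-5p in the family total of each library, with the number of reads (experiment 1) or steps of RPM (experiment 2) under each bar. The miR-34a-5p share is smaller in the ethanol-fed library of each experiment, 65.5% against 85.7% and 75.3% against 91.3%, with overlapping counting intervals in experiment 1.

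The microRNAs whose pair of log2 ratios lay nearest to that of miR-34a-5p, by Euclidean distance over the 2 experiments among 283 microRNAs with at least 10 reads or steps in each table, were miR-96-5p, miR-19a-3p and miR-342-3p. miR-96-5p, of the miR-183 cluster, was at a distance of 0.299, with log2 ratios of -0.66 and -1.47. It stood at 10.8 RPM under pair feeding and 6.73 RPM under ethanol feeding in experiment 1, and at 14.8 and 5.27 RPM in experiment 2. miR-19a-3p, of the miR-17-92 cluster, was at 0.422, with log2 ratios of -0.58 and -1.06. miR-342-3p, from an intron of *Evl*, was at 0.475, with log2 ratios of -0.63 and -1.03. All 3 were lower in the ethanol-fed library of both tables, which is what the measure selects. In experiment 1 miR-34a-5p rests on 24 and 19 reads, with a log2 ratio interval of -1.33 to 0.54, and miR-96-5p on 45 and 29 reads. The distances are small beside that interval, so which names lie nearest is not fixed beyond counting error.

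Other microRNAs linked to p53 were seldom called, and the list is too short to set its share apart from that of all microRNAs. The list held 8 names, miR-192-5p, miR-194-5p, miR-215-5p, miR-107-3p, miR-143-3p, miR-145a-5p, miR-15a-5p and miR-16-5p, all of which passed the minimum in both tables. In experiment 1, 1 of 8 was called higher and 0 lower, beside 12.6% and 12.9% of all microRNAs above the minimum, with a median log2 ratio of 0.06 against -0.01 for all. In experiment 2, 0 were called in either direction, beside 10.7% higher and 15.1% lower of all, with a median of -0.02 against 0.00262. At a minimum of 100, which all 8 names met, 10 were called higher and 9 lower among 158 microRNAs in experiment 1. In experiment 2, 4.03% were higher and 8.05% lower at that minimum. The name called in experiment 1 was miR-145a-5p, a smooth muscle microRNA, which went from 28.5 to 59.4 RPM there and from 523 to 522 RPM in experiment 2. miR-192-5p, among the most abundant liver microRNAs, stood at 388161 RPM under pair feeding and 373090 RPM under ethanol feeding in experiment 1 and at 117318 and 109724 RPM in experiment 2. The lowest log2 ratio of the list in experiment 2 was -0.43, of miR-16-5p, against -1.42 for miR-34a-5p.

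Among 12 other microRNAs reported to target *Sirt1*, 8 passed the minimum in experiment 1 and 9 in experiment 2. In experiment 1, 0 of 8 were called higher and 1 lower, beside 12.6% and 12.9% of all, with a median log2 ratio of 0.12 against -0.01. The lower one was miR-132-3p, an inflammation-linked microRNA, with 23 reads under pair feeding and 10 under ethanol feeding, and in experiment 2 it stood at 17.6 and 19.3 RPM. In experiment 2, 2 of 9 were called higher and 0 lower, beside 10.7% and 15.1% of all, with a median of 0.22 against 0.00262. miR-217-5p, a microRNA of pancreatic acinar cells, went from 1.39 to 56.4 RPM, and miR-9-5p, best known from neural tissue, from 2.96 to 6.65 RPM. miR-217-5p was not listed in experiment 1, and miR-9-5p had 6 and 10 reads there. The sum over the names of the list was 6835 RPM under pair feeding and 8126 RPM under ethanol feeding in experiment 2. Most of it was miR-22-3p, at 5513 and 6642 RPM with a log2 ratio of 0.27, so the sum mainly follows 1 name. miR-34a-5p alone stood at 119 and 44.5 RPM in the same libraries.

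**Figure D4:**
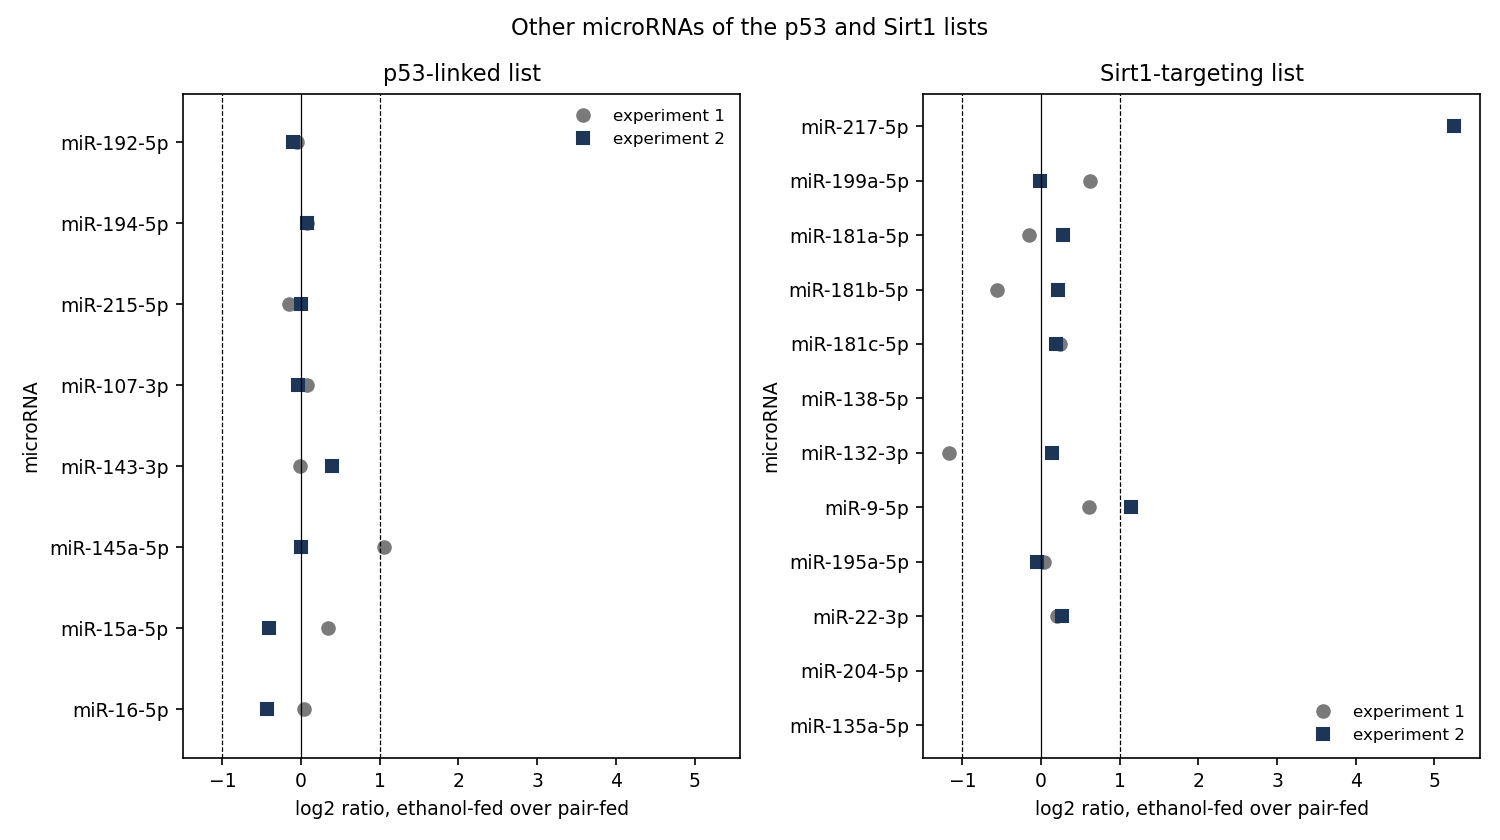
Log2 ratio of the ethanol-fed to the pair-fed level for the other p53-linked microRNAs (left) and the other microRNAs reported to target Sirt1 (right), in experiment 1 (grey circles) and experiment 2 (dark squares). Dashed lines mark 2-fold, and names below the minimum of 10 reads or steps have no mark. The p53-linked names lie between -0.43 and 0.40 in experiment 2, and miR-217-5p lies at 5.25.

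The tissue label was checked with microRNAs of known cell types, which also show what else moved between the libraries. The hepatocyte microRNA miR-122-5p stood at 2971 RPM (pair-fed) and 2210 RPM (ethanol-fed) in experiment 1 and at 182938 and 156660 RPM in experiment 2. It ranked 25th and 27th in experiment 1 but 2nd in both libraries of experiment 2, and this difference between the tables was not tested. The other hepatocyte name, miR-802-5p, was higher with ethanol, at 121 and 135 RPM in experiment 1 and at 111 and 182 RPM in experiment 2. In experiment 2, where miR-34a-5p was lower, the summed white cell microRNAs went from 886 to 473 RPM with 5 of 5 names lower. The log2 ratio interval of miR-155-5p, -0.69 to 0.03, included 0. The red cell microRNAs went from 1826 to 1152 RPM with 4 of 4 lower. The epithelial miR-200 names went from 519 to 887 RPM with 5 of 5 higher, and the striated muscle names from 71.95 to 115 RPM with miR-206-3p listed at 0. The pancreas names went from 5.92 to 113 RPM with 4 of 4 at least 2-fold higher, beside 10.7% of all microRNAs above the minimum. miR-216a-5p and miR-216b-5p, 2 of the pancreas names, had a listed value of 0 under pair feeding. In experiment 1 the red cell names went from 11559 to 33915 RPM with 4 of 4 higher. The white cell names went from 404 to 336 RPM with 4 lower, the interval of miR-142a-3p (-1.17 to 0.03) including 0, and miR-155-5p at 0 and 4 reads in experiment 1. There the pancreas names went from 85.1 to 48.5 RPM, the epithelial names from 61.4 to 61.9 RPM and the muscle names from 0.480 to 4.17 RPM, with miR-217-5p, miR-216a-5p, miR-1a-3p and miR-206-3p not listed. The multiciliated cell names other than the members, miR-449c-5p and miR-449b, were above 0 in no library. The part of these cell types in the miR-34a-5p values was not tested, and in whole liver fewer cells of a type and less RNA per cell cannot be told apart.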

How the data were processed

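Small RNA libraries of mouse liver were compared, 1 pair-fed and 1 ethanol-fed library in each of 2 tables, and 0 columns of values were left without a group. For experiment 1 the authors deposited the raw count of reads per mature microRNA. Experiment 2 was deposited by the authors as RPM with sums of 999899 and 999896, together with their own log2 fold changes and p-values, which were not used. The submitters' processing notes name the build mm8. Aligner, annotation and filters are not given in the sources used here.

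Ratios were computed from RPM with a pseudocount of 1 read or step, within a table only, and their intervals without it. Intervals were exact Poisson for levels and exact Clopper-Pearson for shares and ratios, at 95%. The change in miR-34a-5p per miR-34c-5p between libraries was the exception. Its interval was that of the conditional odds ratio, with estimates of 2.48 in experiment 1 and 3.21 in experiment 2. The computation of ratios, calls and intervals was first checked on simulated counts with known ratios. A minimum of 10 reads or steps, summed over the 2 libraries of a table, was used for calls. In experiment 2 all 469 microRNAs above 0 passed it. Since each condition has 1 library per table and the tables were normalized separately, no p-value was computed. Alternatives were unscaled reads and TMM factors of edgeR (experiment 1 only), median-of-ratios scaling, a total without the most abundant microRNA, a pseudocount of 0.1, zeros set to the lowest listed value (experiment 2), and no minimum or a minimum of 100.

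The members, the lists and the rule for names were chosen with earlier results of these data known. Named were all members, names of the lists that a sentence counts, and the 3 microRNAs nearest to miR-34a-5p over both log2 ratios. The ratio of miR-34a-5p to miR-34c-5p was added after the values had been seen. Sequences came from RefSeq (GRCm38.p6), gene models and 3′ UTRs from GENCODE vM21 (GRCm38), taking the longest 3′ UTR per gene. R 4.3.3 with edgeR 4.0.16 and Python 3.11.15 with scipy 1.17.1, pandas 2.3.3, numpy 2.4.6 and matplotlib 3.10.9 were used.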

Additional observations from a re-analysis of the deposited data

How the results depend on the processing

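The log2 ratio of miR-34a-5p ranged from -0.41 to -0.30 over 5 alternatives in experiment 1 and from -1.44 to -1.42 over 4 in experiment 2. It stayed at least 2-fold lower in experiment 2 under all 4. Of these 4, setting zeros to the lowest listed value could not change it, since miR-34a-5p was above 0 in both libraries. miR-34b-5p ranged from 1.11 to 1.19 in experiment 2, and miR-34c-5p from 0.76 to 0.93 in experiment 1 and from 0.24 to 0.26 in experiment 2. miR-34a-5p per miR-34c-5p was 2.25-fold and 3.20-fold lower with 1 read or step added to each. Unscaled reads and TMM factors could be run in experiment 1 only.

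The counts of microRNAs called moved with the minimum, by construction, since the set of names changes. In experiment 1 they were 38 higher and 39 lower, against 99 and 102 with no minimum and 10 and 9 at a minimum of 100 reads. In experiment 2 they were 50 higher and 71 lower, against 12 and 24 at a minimum of 100 steps, and against 22 and 49 when a value of 0 was set to the lowest listed value.

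Few reads limit experiment 1, where miR-34a-5p rests on 24 and 19 reads at a level of 5.75 RPM (pair-fed) and 4.41 RPM (ethanol-fed). No paired analysis was possible because the labels give each condition 1 sample, so the groups share fewer than 2 replicate numbers, and the 2 tables, normalized separately, were not combined in a test. Leaving out a library would leave its table without a comparison.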

Other observations

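The level of miR-34a-5p differed more between the pair-fed libraries of the 2 tables than between the diets. It stood at 5.75 RPM in experiment 1 and at 119 RPM in experiment 2, 20.8-fold higher, a log2 difference of 4.32 against a median of 1.099 over 283 microRNAs with at least 10 reads or steps in each table. Of these microRNAs, 32 were higher in experiment 2 by more than this, and differences in the other direction were not counted. miR-34c-5p stood at 0.959 and 10.5 RPM, 10.9-fold higher in experiment 2. The tables were deposited in different units and normalized separately, and the cause of the difference was not tested.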
